A study of Mus musculus with 22 samples.

Results

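The transcription factor p53, encoded by Trp53, and 9 of its direct target genes were followed in RNA sequencing libraries of mouse oral tumours. The 10 genes were chosen by name: Trp53, the targets Cdkn1a, Mdm2, Bax, Bbc3, Pmaip1, Ccng1, Zmat3, Phlda3 and Eda2r. All 10 were found by symbol among the 56748 gene IDs listed in each deposited table, and all 10 passed the filter on low counts. The rule that picks them is their names alone, though it was written with earlier results of these data known.

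The series models head and neck squamous cell carcinoma in mice and asks about the KEAP1/NRF2 pathway, in which KEAP1 marks the transcription factor NRF2 for degradation. The 22 libraries are primary tumours of the buccal mucosa started by an injection of 4-hydroxytamoxifen, alone or combined with BAP (benzo[a]pyrene, found in tobacco smoke and carcinogenic). Every animal carried Krt5CreER-T2/+, Trp53fl/fl and a pair of Rosa26LSL-PIK3CA(H1047R) alleles, so no group had a genotype with intact Trp53. The Keap1-wildtype groups had no further allele and comprised 6 tumours started without BAP (untreated) and 6 with BAP. The Keap1-deleted groups also carried Keap1fl/fl and comprised 5 untreated and 5 BAP tumours. Cre was driven by the Krt5 promoter of basal keratinocytes, so stromal, vascular and immune cells in a tumour keep their Trp53 and Keap1. The sources used here give neither age, sex nor the floxed exons, and do not say if some tumours share an animal, so p-values measure the spread between these samples only.

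p53 is stabilised by DNA damage and other stress and switches on genes that stop the cell cycle, start apoptosis or shut p53 itself down again. The best known targets encode p21 (Cdkn1a), the ubiquitin ligase MDM2 that degrades p53, and the death-inducing proteins BAX, PUMA (Bbc3) and NOXA (Pmaip1). Loss of p53 is common in head and neck squamous cell carcinoma, and several of its targets keep a basal expression that does not need p53.

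Total counts per library ranged from 29235010 to 39862777. Values are CPM, counts scaled to a common library size, after TMM, a trimmed-mean scaling between libraries. Log2 fold changes have their standard error (SE) and come, like the adjusted p (Benjamini-Hochberg over 19202 genes), from the quasi-likelihood test of edgeR. A gene is said to rise or fall where that adjusted p is under 0.05. Keap1 itself lay between 45.8 and 78.9 CPM in the Keap1-wildtype libraries and between 9.45 and 36.4 CPM in 9 of the 10 Keap1-deleted ones, and only Keap1-deleted BAP 2, at 65.6 CPM, went against its label. Without it, 6 of the 7 calls made below in BAP tumours held, as did both calls of Cdkn1a in other comparisons, and Bbc3 was lost (log2 fold change 0.61, adjusted p = 0.0823). Keratinocyte markers also set some libraries apart. A basal keratinocyte score, the mean log2 CPM of 14 markers such as Krt5 and Krt14, lay between 9.17 and 10.14 in Keap1-wildtype BAP tumours and between 1.36 and 5.96 in Keap1-deleted BAP tumours. It was 5.37 in Keap1-wildtype untreated 6, against 8.91 to 10.04 in the other 5 libraries of that group. It was 6.47 and 6.92 in Keap1-deleted untreated 3 and 4, against 8.38 to 9.34 in the other 3 libraries of theirs. None of the 14 markers was at 0 in any library, but Krt5 was at 1.80 CPM and Krt14 at 13 CPM in the lowest Keap1-deleted BAP library, although every sample is labelled a squamous carcinoma.

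Genes can be compared only per length. The deposited effective lengths were the same in every library and the deposited counts whole, so these may be lengths of gene models rather than lengths estimated per library, and the order below holds only on them. Per kilobase of that length, Phlda3 was the most abundant of the 10 transcripts, with a median of 137 CPM per kb over the 22 libraries. Cdkn1a followed at 54.0, Bax at 36.4, Ccng1 at 14.5, Mdm2 at 9.99 and Pmaip1 at 5.98 CPM per kb. Trp53 at 3.37, Bbc3 at 3.35 and Zmat3 at 2.95 CPM per kb were close together, and Eda2r was lowest at 0.725. Of the 9 steps in this order, 3 were larger than the spread (SD of the log2 difference over libraries): from Phlda3 to Cdkn1a, from Bax to Ccng1 and from Zmat3 to Eda2r. The other steps were within that spread, though Ccng1 lay above Mdm2 in 19 of the 22 libraries. At the remaining steps the gene placed higher led in 11 to 14 libraries.

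**Figure D1:**
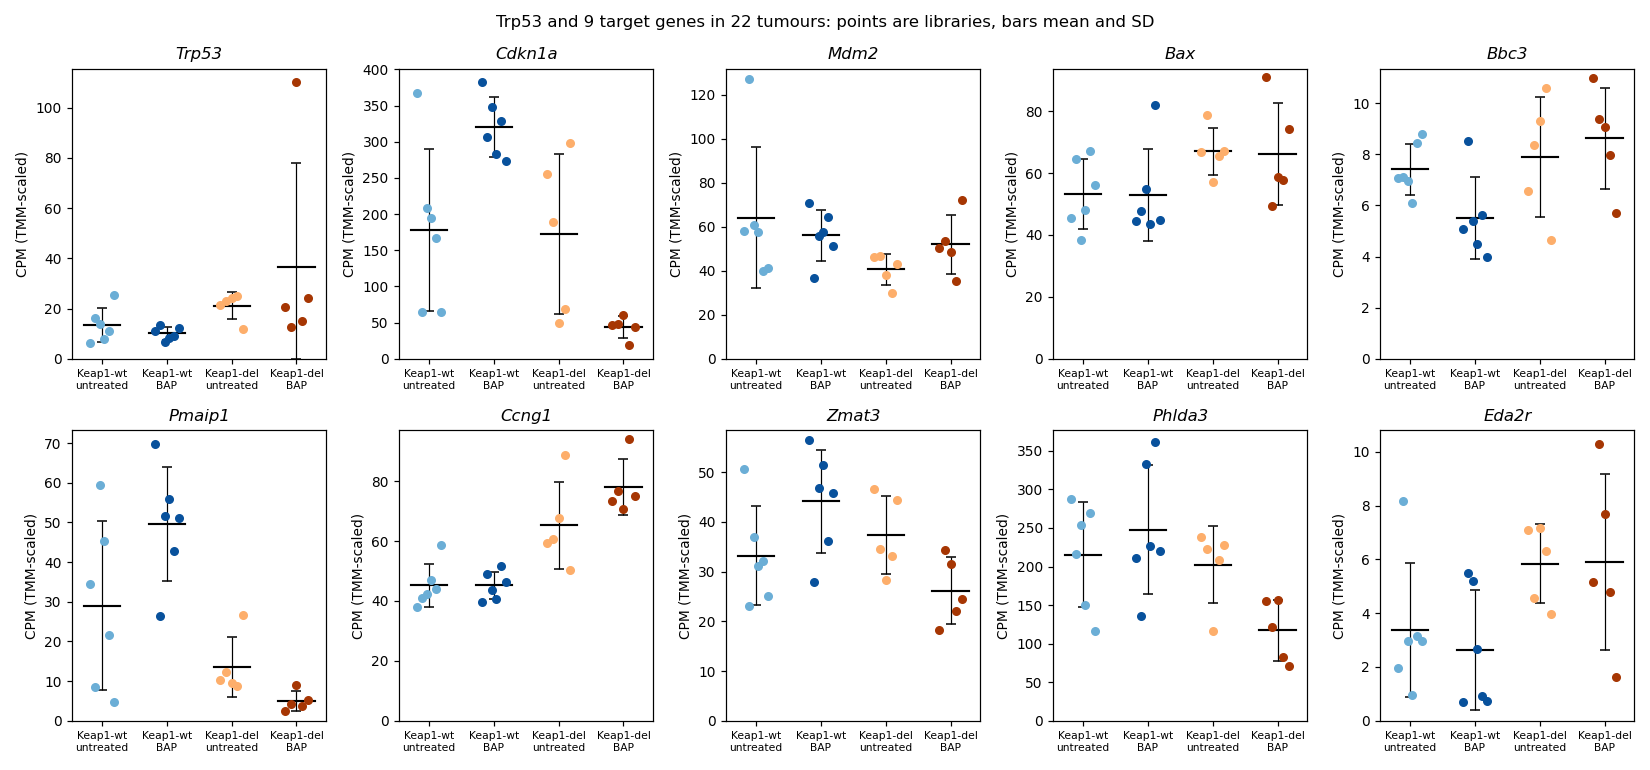
Level of each of the 10 genes (CPM, linear axes from 0, a scale of its own in each panel) in the 4 groups, with a point per library, a line at the group mean and bars of 1 SD; the bar of Trp53 in Keap1-deleted BAP tumours is cut off at 0. Cdkn1a and Pmaip1 lie far lower in Keap1-deleted BAP than in Keap1-wildtype BAP tumours, Ccng1 lies higher, and Trp53 has 1 library at 110 CPM.

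Trp53 (ENSMUSG00000059552; chromosome 11, 69580359 to 69591873, plus strand in GENCODE M21 on GRCm38) was detected in every library, although all tumours carried the floxed allele. Its level was 6.34 to 25.2 CPM in Keap1-wildtype untreated tumours (median 12.3, n = 6) and 6.65 to 13.4 CPM in Keap1-wildtype BAP tumours (median 10.1, n = 6). The 5 Keap1-deleted untreated libraries held 21.6, 23.1, 24.2, 24.9 and 11.9 CPM. The 5 Keap1-deleted BAP libraries held 20.6, 12.7, 110, 15.1 and 24.1 CPM. Apart from the 110 CPM of Keap1-deleted BAP 3, all Keap1-deleted libraries lay within the range of the Keap1-wildtype libraries. A gene-level count does not tell a transcript that lacks the floxed exons from an intact one, nor tumour cells from the stromal cells that keep Trp53. In bulk tissue, fewer cells of a type and less RNA per cell cannot be told apart.

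Between the BAP tumours Trp53 rose with Keap1 deletion by 1.85 on the log2 scale (SE 0.47, adjusted p = 0.00420), from 10.1 ± 2.52 CPM (SD, n = 6) to 36.6 ± 41.5 CPM (SD, n = 5). One library carried much of the size: without Keap1-deleted BAP 3 it was 0.84 (SE 0.33, adjusted p = 0.0498). Untreated tumours gave a value of 0.66 (SE 0.46, adjusted p = 0.457), which did not pass. BAP itself gave -0.40 (SE 0.44) in Keap1-wildtype and 0.79 (SE 0.48) in Keap1-deleted tumours, neither of which passed, and the second was -0.22 without Keap1-deleted BAP 3.

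The genes whose levels over the 22 libraries ranked most like Trp53, among 13564 genes with a mean of at least 1 CPM, were Orai3, a calcium channel subunit (Spearman rho 0.91), Cracr2b (0.89), Renbp (0.88), the cation channel gene Trpv2 (0.88) and Jaml, an adhesion receptor of leukocytes (0.87). Jaml averaged 4.84 CPM in Keap1-wildtype untreated, 2.07 in Keap1-wildtype BAP, 6.74 in Keap1-deleted untreated and 13.7 in Keap1-deleted BAP tumours. These are descriptions over libraries that share their groups, and with the group means removed the correlations were 0.52 to 0.77 (Pearson).

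Cdkn1a (ENSMUSG00000023067; chromosome 17, 29090976 to 29100727, plus strand) encodes p21, the inhibitor of cyclin-dependent kinases through which p53 arrests the cell cycle. Its level ran from 64.0 to 367 CPM in Keap1-wildtype untreated tumours (median 181, n = 6) and from 274 to 383 CPM in Keap1-wildtype BAP tumours (median 318, n = 6). The Keap1-deleted untreated libraries held 256, 189, 48.8, 68.5 and 298 CPM. The Keap1-deleted BAP libraries held 46.1, 48.3, 60.3, 18.9 and 44.5 CPM. Every Keap1-deleted BAP library lay below every Keap1-wildtype BAP library, and both untreated groups were spread over a range of more than 5-fold.

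Cdkn1a fell with Keap1 deletion in BAP tumours by 2.88 on the log2 scale (SE 0.49, adjusted p = 4.02e-04), a level 7.35-fold lower. In untreated tumours the value was -0.05 (SE 0.45, adjusted p = 0.964). The difference between those Keap1 effects, the interaction, was -2.83 (SE 0.64, adjusted p = 0.0292), and among the 10 genes only Cdkn1a passed it, in a test that called 6.94% of all genes (2.47% higher, 4.47% lower). Cdkn1a fell 3.94-fold with BAP in Keap1-deleted tumours (log2 fold change -1.98, SE 0.48, adjusted p = 0.0243). In Keap1-wildtype tumours BAP gave 0.85 (SE 0.43, adjusted p = 0.392), which did not pass. The interaction call was lost when Keap1-deleted untreated 1, 2 or 5 or Keap1-deleted BAP 4 was left out (adjusted p 0.0514 to 0.0700) or no low-count filter was used (0.0526), and the BAP call was lost without Keap1-deleted untreated 1 or 5 or Keap1-deleted BAP 1, 4 or 5 (adjusted p 0.0520 to 0.0780) or when only the groups compared were fitted (0.0592). Cell type scores changed them more. With the basal keratinocyte score described above in the fit, the interaction was -0.86 (SE 0.55, adjusted p = 0.817) and the BAP effect in Keap1-deleted tumours -0.34 (SE 0.41, adjusted p = 0.904). With a score of 12 fibroblast markers, chosen after the data were seen, they were -2.16 (SE 0.68, adjusted p = 0.121) and -1.69 (SE 0.45, adjusted p = 0.0415), so that the second still passed. These losses do not single out Cdkn1a. With the basal keratinocyte score no gene of all tested passed the interaction and 2 passed the BAP effect. With the fibroblast score 1 gene passed the interaction.

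Of the 2 starts of Cdkn1a with a RefSeq promoter window (250 bases before to 50 after the start, build GRCm38.p6), the upstream one held a full p53 response element. The element was searched as 2 half-sites of 10 bases (3 purines, C, 2 bases A or T, G, 3 pyrimidines) on both strands, with a spacer of up to 13 bases, up to 2 mismatches in all and the C and G fixed. The stretches that hold the elements are printed because the genes with a match differed between the BAP tumours: with Keap1 deletion Cdkn1a fell, Ccng1 rose and Bax did not pass. They are given 5′ to 3′ on the strand of the gene, with bases of half-sites in capitals, including those of a second, overlapping match. Cdkn1a lies on chr17:29090886-29090967 (plus strand), Ccng1 on chr11:40755442-40755506 (minus strand) and Bax on chr7:45467059-45467134 (minus strand).
Cdkn1a: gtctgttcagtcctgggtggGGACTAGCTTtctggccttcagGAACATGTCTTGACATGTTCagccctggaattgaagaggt
Ccng1: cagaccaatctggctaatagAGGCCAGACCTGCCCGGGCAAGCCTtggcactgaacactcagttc
Bax: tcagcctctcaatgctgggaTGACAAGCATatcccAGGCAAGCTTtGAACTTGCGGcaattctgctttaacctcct
The match in Cdkn1a had 0 mismatches and a spacer of 12 bases, and its second match had 1 mismatch and a spacer of 0. That in Ccng1 had 1 mismatch and a spacer of 0, and that in Bax had 2 mismatches and a spacer of 1. Windows were found for 8 of the 10 genes, and 3 of these 8 held a match, against 4.71% of the 27025 genes searched. No match was found in the windows of Trp53, Mdm2, Bbc3, Phlda3 and Eda2r, which says only that these letters are not in those windows. A match describes the sequence and is not a binding site.

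The genes that ranked most like Cdkn1a over the 22 libraries were the cell surface proteoglycan gene Sdc1 (Spearman rho 0.97), Ppp1r37 (0.96), Fam53b (0.96), the EGF-receptor ligand gene Tgfa (0.95) and Atp9a (0.95). Tgfa averaged 34.2 CPM in Keap1-wildtype untreated, 71.1 in Keap1-wildtype BAP, 33.7 in Keap1-deleted untreated and 2.75 in Keap1-deleted BAP tumours. With the group means removed the correlations were 0.61 to 0.84 (Pearson).

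The feedback genes were less variable than Cdkn1a. Over the 22 libraries the highest level was 4.27 times the lowest for Mdm2 and 2.47 times for Ccng1, against 20.3 times for Cdkn1a. Mdm2 (ENSMUSG00000020184; chromosome 10, 117688875 to 117710758, minus strand) encodes the ubiquitin ligase that degrades p53. It lay between 39.9 and 127 CPM in Keap1-wildtype untreated tumours (median 57.9, n = 6) and between 36.8 and 70.9 CPM in Keap1-wildtype BAP tumours (median 56.7, n = 6). The Keap1-deleted untreated libraries held 46.2, 46.5, 37.9, 29.8 and 42.9 CPM, and the Keap1-deleted BAP libraries 50.2, 53.5, 48.3, 35.5 and 72.2 CPM. All groups overlapped, and Mdm2 passed no comparison. Keap1 deletion gave -0.66 (SE 0.26, adjusted p = 0.199) in untreated tumours, and the value among BAP tumours was -0.11 (SE 0.26, adjusted p = 0.756).

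The 127 CPM of Mdm2 in Keap1-wildtype untreated 2 was 2.20 times the median of the other 5 libraries of the group. That library also held the highest Eda2r level of its group, 8.16 CPM, and low Cdkn1a, 65.2 CPM, at a basal keratinocyte score of 9.22. Of the 3 nearest expressed neighbours on the side after Mdm2 in the annotation, Slc35e3 was 1.68 times and Nup107 1.30 times the median of the other libraries, both above their ranges, and Rap1b was 0.613 times, below its range. Cpm, the nearest gene on the other side, was at 0.419 times, within its wide range. Cpsf6 and Mdm1, further out on either side, were 1.56 and 1.96 times that median and also above the other libraries. Trp53 in Keap1-deleted BAP 3, at 6.17 times the median of the other 4 libraries, stood between Wrap53 at 0.839 and Atp1b2 at 0.900 times, both within the ranges of the other libraries. Efnb3 and Fxr2, further out, were at 2.70 and 1.63 times, above theirs, and Sat2, between Atp1b2 and Fxr2, was at 0.856 times, below its range. Ranked from the highest of the 22 libraries, the values were at 1 for Cpsf6, 2 for Slc35e3 and Mdm1, 3 for Nup107 and 22 for Rap1b. Those of Efnb3 and Fxr2 were at 3 and that of Sat2 at 10. A range of 4 or 5 libraries is easily exceeded, and the share of all genes outside it was not counted. These neighbours were looked at after the values of Mdm2 and Trp53 had been seen, and the cause of their levels was not tested.

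**Figure D2:**
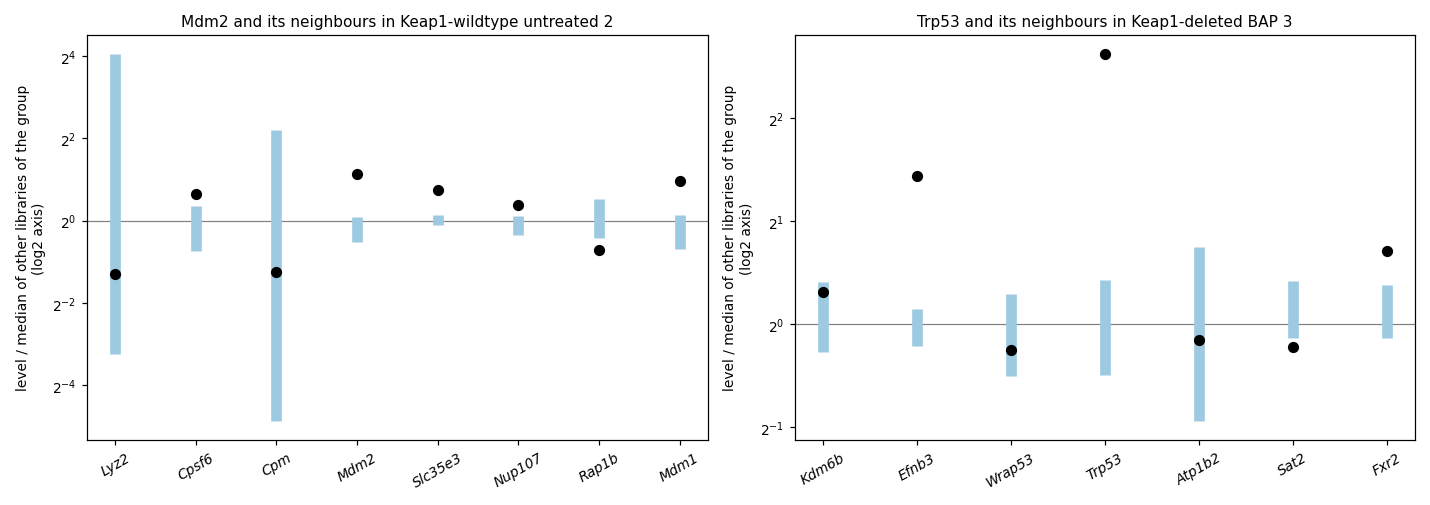
Level of Mdm2 in Keap1-wildtype untreated 2 (left) and of Trp53 in Keap1-deleted BAP 3 (right) with the genes on either side in genome order, each divided by the median of the other libraries of its group (log2 axis). Points are the library named and bars the range of the other libraries; Mdm2 stands at 2.20 and Trp53 at 6.17, and genes with a median near 0 are left out.

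Ccng1 (ENSMUSG00000020326; chromosome 11, 40748552 to 40755311, minus strand) encodes cyclin G1, which works with a phosphatase on MDM2. Its level was 38.1 to 58.8 CPM in Keap1-wildtype untreated (median 43.2, n = 6) and 39.8 to 51.5 CPM in Keap1-wildtype BAP tumours (median 45.1, n = 6). It was 59.3, 60.6, 67.7, 88.7 and 50.2 CPM in the Keap1-deleted untreated libraries and 73.4, 76.6, 70.6, 94.1 and 75.0 CPM in the Keap1-deleted BAP libraries. The Keap1-deleted BAP libraries all lay above the Keap1-wildtype BAP libraries, while the untreated groups overlapped. Ccng1 rose with Keap1 deletion in BAP tumours by 0.79 (SE 0.15, adjusted p = 6.24e-04), which is 1.73-fold. In untreated tumours it was 1.44-fold (log2 0.53, SE 0.15) with an adjusted p of 0.0973, and the interaction, 0.26 (SE 0.21, adjusted p = 0.462), did not pass. Without Keap1-wildtype untreated 6 the untreated value passed, at 0.62 (adjusted p = 0.0104).

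The 3 death genes differed from each other. Pmaip1 (ENSMUSG00000024521; chromosome 18, 66458533 to 66465565, plus strand) encodes NOXA, a small protein that neutralises a survival factor of the BCL2 family. It ran from 4.61 to 59.5 CPM in Keap1-wildtype untreated tumours (median 28, n = 6) and from 26.4 to 69.8 CPM in Keap1-wildtype BAP tumours (median 51.4, n = 6). The Keap1-deleted untreated libraries held 10.2, 12.3, 9.43, 8.69 and 26.7 CPM, and the Keap1-deleted BAP libraries 2.53, 4.22, 9.0, 3.81 and 5.10 CPM. The BAP groups did not overlap. Pmaip1 fell with Keap1 deletion in BAP tumours by 3.33 (SE 0.55, adjusted p = 3.67e-04), 10-fold, the largest fold change among the 10 genes in that comparison. The value in untreated tumours was -1.11 (SE 0.50, adjusted p = 0.257), and it passed at -1.33 without Keap1-wildtype untreated 6 (adjusted p = 0.0449). The interaction was -2.22 (SE 0.70, adjusted p = 0.0568), just short of the threshold, and it passed in 5 of the 22 fits that left a library out, with a lowest adjusted p of 0.0348 without Keap1-wildtype untreated 3.

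Bbc3 (ENSMUSG00000002083; chromosome 7, 16308393 to 16318205, plus strand), the gene of PUMA, went the other way at a low level. It lay between 6.10 and 8.78 CPM in Keap1-wildtype untreated tumours (median 7.11, n = 6) and between 3.99 and 8.54 CPM in Keap1-wildtype BAP tumours (median 5.23, n = 6). The Keap1-deleted untreated libraries held 6.58, 8.36, 9.30, 10.6 and 4.63 CPM, and the Keap1-deleted BAP libraries 11.0, 9.37, 9.06, 7.99 and 5.69 CPM. All groups overlapped. Bbc3 rose with Keap1 deletion in BAP tumours by 0.65 (SE 0.25, adjusted p = 0.0437). This call was weak: it held in 10 of the 22 fits that left out a library and was lost, among others, without Keap1-deleted BAP 1 (0.54, adjusted p = 0.115). In untreated tumours the value was 0.09 (SE 0.25).

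Bax (ENSMUSG00000003873; chromosome 7, 45461697 to 45466898, minus strand) encodes the protein that opens the outer mitochondrial membrane in apoptosis. It stayed between 38.3 and 67.0 CPM in Keap1-wildtype untreated, 43.4 and 82.0 in Keap1-wildtype BAP, 57.0 and 78.7 in Keap1-deleted untreated and 49.5 and 91.1 CPM in Keap1-deleted BAP tumours. It passed no comparison. Keap1 deletion gave 0.33 (SE 0.19, adjusted p = 0.377) in untreated and 0.33 (SE 0.19, adjusted p = 0.189) in BAP tumours, and the second passed without Keap1-wildtype BAP 5 (0.49, adjusted p = 0.0351).

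The remaining targets act on growth signals, RNA and cell death receptors. Phlda3 (ENSMUSG00000041801; chromosome 1, 135766119 to 135769136, plus strand) encodes a repressor of the kinase AKT, which acts downstream of PIK3CA. It lay between 117 and 287 CPM in Keap1-wildtype untreated and between 136 and 362 CPM in Keap1-wildtype BAP tumours. The Keap1-deleted untreated libraries held 238, 223, 116, 208 and 228 CPM and the Keap1-deleted BAP libraries 155, 121, 157, 83.0 and 71.4 CPM. Its mean in Keap1-deleted BAP tumours was 2.11-fold below that in Keap1-wildtype BAP tumours (log2 fold change -1.08, SE 0.29, adjusted p = 0.00651), though the ranges overlapped.

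Zmat3 (ENSMUSG00000027663; chromosome 3, 32334792 to 32366014, minus strand) encodes an RNA-binding zinc finger protein. It lay between 23.0 and 50.7 CPM in Keap1-wildtype untreated and between 27.9 and 56.5 CPM in Keap1-wildtype BAP tumours. The Keap1-deleted untreated libraries held 46.7, 34.6, 28.3, 33.1 and 44.5 CPM and the Keap1-deleted BAP libraries 18.3, 34.4, 31.6, 22.1 and 24.5 CPM. Zmat3 fell by 0.75 (SE 0.23, adjusted p = 0.0124) with Keap1 deletion in BAP tumours, again with overlapping ranges, and gave 0.17 (SE 0.22) in untreated tumours. Eda2r (ENSMUSG00000034457; chromosome X, 97333840 to 97377216, minus strand), a receptor of the tumour necrosis factor family, was the lowest of the 10 and passed no comparison. It ranged from 0.965 to 8.16 CPM in Keap1-wildtype untreated, from 0.712 to 5.48 CPM in Keap1-wildtype BAP and from 3.98 to 7.18 CPM in Keap1-deleted untreated tumours, and the Keap1-deleted BAP libraries held 5.16, 10.3, 7.68, 4.78 and 1.62 CPM (log2 fold change 1.17, SE 0.59, adjusted p = 0.117).

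Counted over the 10 genes, 3 rose (Trp53, Ccng1, Bbc3) and 4 fell (Cdkn1a, Pmaip1, Zmat3, Phlda3) with Keap1 deletion in BAP tumours. This comparison called 40.3% of all genes tested, 20.3% higher and 20.0% lower, so changes of this kind were common. Ranges did not overlap for 3 of the 10, against 27.5% of all genes (13.8% higher, 13.7% lower). The median log2 fold change of the 10 genes was 0.11, beside -0.00 over all genes. In untreated tumours Keap1 deletion called 0 of the 10 at 0.292% of all genes, although 3 of the 10 (Mdm2, Pmaip1 and Ccng1) had an unadjusted p under 0.05, as did 17.6% of all genes. BAP called 0 of the 10 and 0 genes in Keap1-wildtype tumours by edgeR. In that comparison 0 of the 10 and 2622 genes (13.7%) had an unadjusted p under 0.05, and DESeq2 called 892 genes and 0 of the 10. In Keap1-deleted tumours BAP called Cdkn1a alone, at 6.10% of all genes (0.943% higher, 5.16% lower), and the interaction called Cdkn1a alone. The comparisons share groups of libraries, so their values are not independent of each other.

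**Figure D3:**
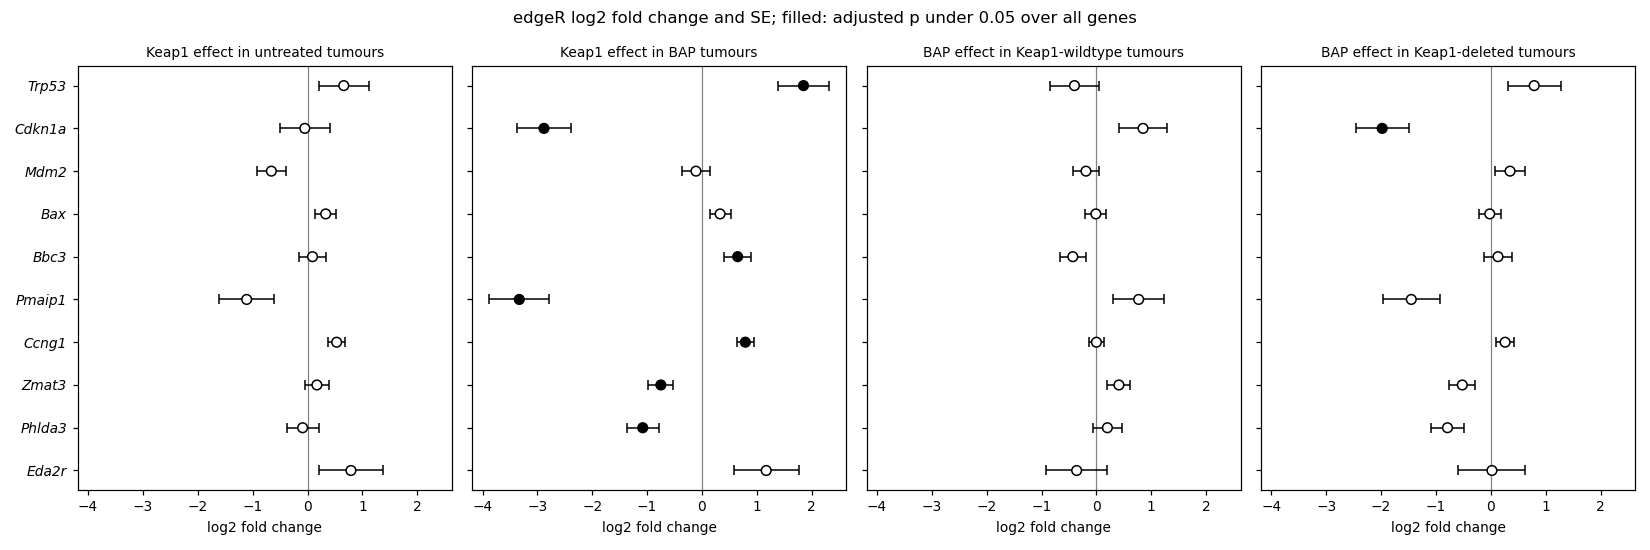
Log2 fold change of the 10 genes from edgeR in the 4 pairwise comparisons, with bars of 1 SE; filled points have an adjusted p under 0.05 over all 19202 genes. Filled points are found for 7 genes in the Keap1 comparison of BAP tumours and for Cdkn1a in the BAP comparison of Keap1-deleted tumours, and for none of the 10 in the other panels.

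The 7 changes in BAP tumours came with a large difference in cell type markers. Of the 14 basal keratinocyte markers 13 fell with Keap1 deletion in BAP tumours, and their summed level was 320 to 2223 CPM against 35811 to 70223 CPM in Keap1-wildtype BAP tumours. All 12 fibroblast markers rose, with sums of 14264 to 46763 against 1060 to 2537 CPM. All 12 macrophage markers rose too, with sums of 1865 to 4071 against 104 to 246 CPM. Of the skeletal muscle markers 10 of 11 rose, of the T cell markers 1 of 10 and of the endothelial markers 2 of 10, and none of the fibroblast or macrophage markers was at 0 in any library. The untreated libraries with a low basal keratinocyte score had Cdkn1a levels of 64.0 (Keap1-wildtype untreated 6), 48.8 and 68.5 CPM (Keap1-deleted untreated 3 and 4). The Keap1-deleted BAP libraries held 18.9 to 60.3 CPM. Keap1-wildtype untreated 2 had low Cdkn1a, 65.2 CPM, at a score of 9.22.

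Once the basal keratinocyte score entered the fit, Keap1 deletion in BAP tumours called 0 of the 10 and 0 genes in all. The values became 1.35 (SE 0.76, adjusted p = 0.772) for Trp53, -0.71 (SE 0.48, adjusted p = 0.831) for Cdkn1a, -1.61 (SE 0.79, adjusted p = 0.716) for Pmaip1 and 0.21 (SE 0.20, adjusted p = 0.890) for Ccng1. Those of Zmat3 and Phlda3 shrank to -0.08 and -0.06. The fibroblast score in its place also left 0 of the 10 called. The scores of the BAP groups do not overlap, so the basal keratinocyte score and the Keap1 genotype cannot be told apart in these tumours. Nor does the score tell fewer keratinocytes from cells with less RNA of these markers, and which of these applies was not tested. Scaling mattered for some of the 10 genes as well. With library totals as the only scaling, 73.4% of the calls in this comparison were higher rather than 50.3%, and likewise 88.1% rather than 73.2% for Keap1 deletion in untreated tumours, 26.7% rather than 15.4% for BAP in Keap1-deleted tumours and 62.2% rather than 35.6% in the interaction. That scaling moved the median of all genes in BAP tumours to 0.44, Zmat3 (-0.30) and Phlda3 (-0.62) no longer passed and Bax (0.76, adjusted p = 0.00972) did, while Mdm2 was at 0.33 in place of -0.11.

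**Figure D4:**
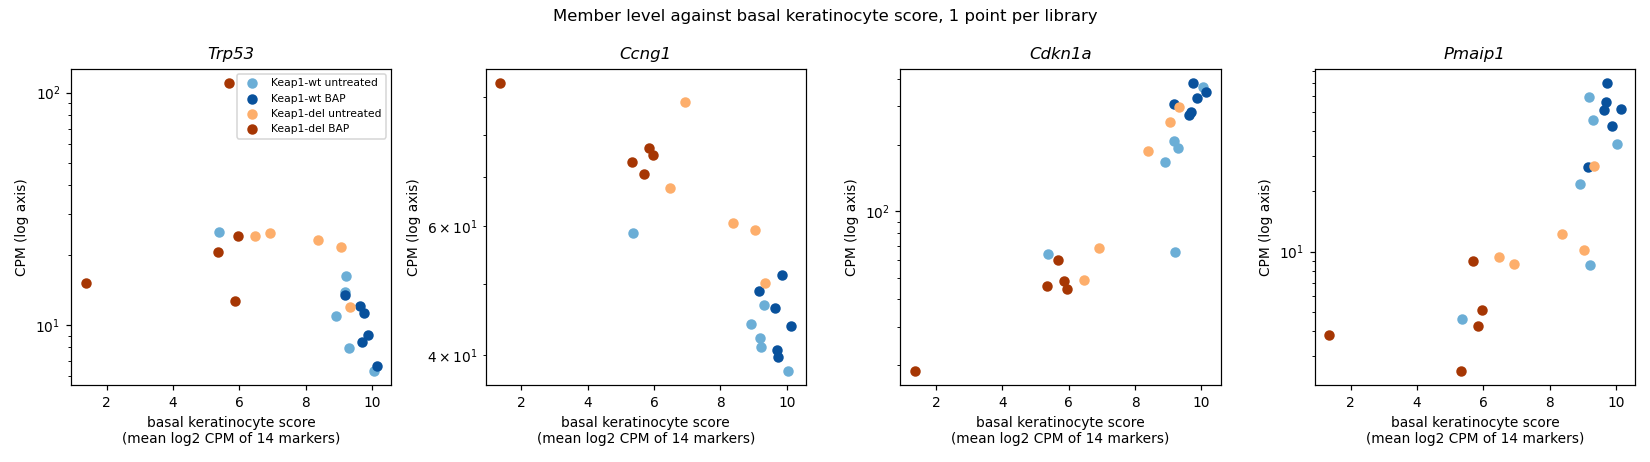
Level of Trp53, Ccng1, Cdkn1a and Pmaip1 (CPM, log axis) against the basal keratinocyte score (mean log2 CPM of 14 markers), with a point per library coloured by group. Libraries with a score under 7 come from 3 groups and hold 18.9 to 68.5 CPM of Cdkn1a, and the library with the lowest score, 1.36, has the lowest Cdkn1a.

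**Figure D5:**
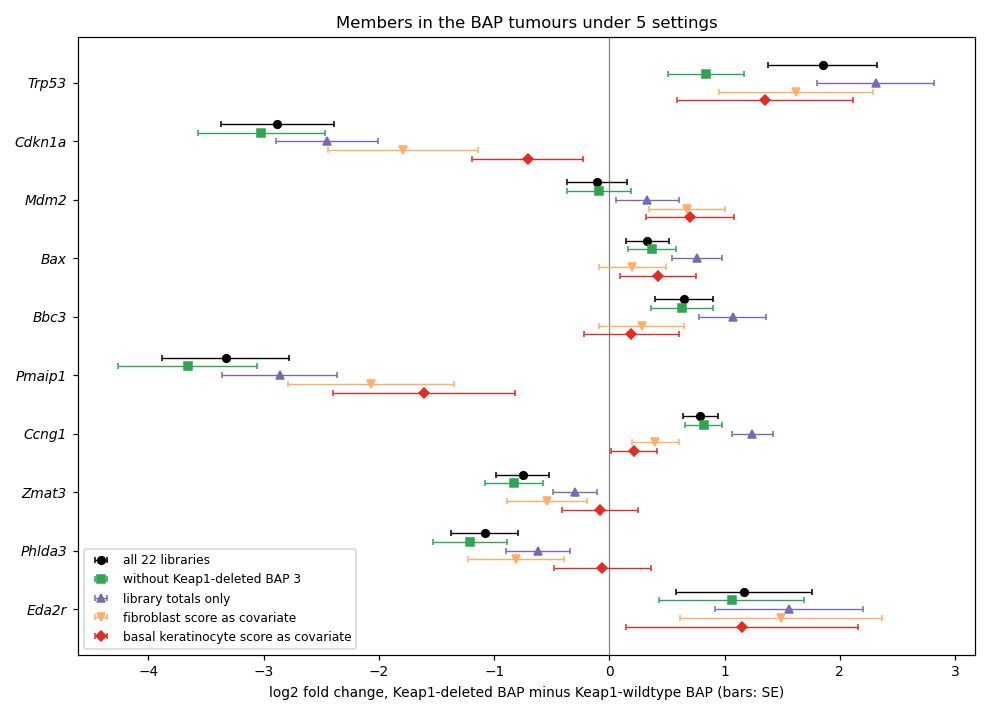
Log2 fold change of the 10 genes between Keap1-deleted BAP and Keap1-wildtype BAP tumours under 5 settings, with bars of 1 SE. Cdkn1a moves from -2.88 to -0.71 and Pmaip1 from -3.33 to -1.61 when the basal keratinocyte score is added, and Trp53 moves from 1.85 to 0.84 without Keap1-deleted BAP 3.

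In a wider list of 32 other p53 targets 8 rose, 9 fell and 15 did not pass with Keap1 deletion in BAP tumours, with a median of -0.11. Of all genes in that comparison 20.3% rose and 20.0% fell, with a median of -0.00. Perp, a desmosome protein of stratified epithelia, fell by 5.12 (SE 0.92, adjusted p = 5.16e-04), and Sfn, the keratinocyte protein stratifin, fell by 5.08 (SE 0.87, adjusted p = 4.06e-04). Perp went from 3375 to 7269 CPM in Keap1-wildtype BAP libraries to between 12.6 and 247 CPM in Keap1-deleted BAP libraries. The stress-induced kinase gene Plk3 (-2.34), the antiproliferative gene Btg2 (-1.78), the nuclease gene Aen (-1.46) and the stress sensor gene Sesn2 (-0.97) also fell. In the same comparison 13 of 14 basal keratinocyte markers fell. With the basal keratinocyte score in the fit neither Sfn nor Perp passed, as no gene did, and the cause of their fall was not tested.

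Among the other targets that rose were Gdf15, a secreted stress cytokine (2.79, SE 0.62, adjusted p = 0.00176), the death receptor genes Fas (1.62) and Tnfrsf10b (0.88), Apaf1 of the apoptosome (1.33) and the polymerase gene Polk (0.78). The level of Gdf15 was low, 0.0956 to 1.42 CPM in Keap1-wildtype BAP and 2.59 to 7.99 CPM in Keap1-deleted BAP libraries. Trp53cor1, a long noncoding RNA next to Cdkn1a, had 0 counts in all 6 Keap1-wildtype BAP libraries and 1 to 19 counts in the Keap1-deleted BAP libraries. Set against a floor of 3 counts over the former group, 0.0173 CPM, its mean of 0.301 CPM was at least 17.4-fold higher. With BAP in Keap1-deleted tumours Sfn (-3.87), Perp (-3.58) and Btg2 (-1.45) fell and none of the 32 rose. Of all genes 5.16% fell and 0.943% rose there. The interaction passed for Sfn (-4.53) and Perp (-4.35), in a test that called 6.94% of all genes. In untreated tumours and for BAP in Keap1-wildtype tumours 0 of the 32 passed, where 0.292% and 0% of all genes were called.

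Of 15 genes that act on p53 or belong to its family, 1 rose and 4 fell with Keap1 deletion in BAP tumours, where 40.3% of all genes were called. Cdkn2a (ENSMUSG00000044303), whose products include the MDM2 inhibitor ARF and the kinase inhibitor p16, rose by 2.68 (SE 0.47, adjusted p = 4.53e-04). It held 1000, 779, 408, 1045 and 652 CPM in the Keap1-deleted BAP libraries against 63.3 to 201 CPM (median 117, n = 6) in the Keap1-wildtype BAP libraries, with no overlap. Its interaction also passed, at 2.30 (SE 0.65, adjusted p = 0.0400). The gene-level count does not separate the transcripts of ARF and p16. In the untreated groups its highest values, 511, 519 and 526 CPM, were in Keap1-wildtype untreated 6 and Keap1-deleted untreated 3 and 4, the libraries with low keratinocyte scores.

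Of these 15 genes the family members of p53 fell furthest. Trp63, the master regulator of stratified epithelia, fell by 4.85 (SE 0.77, adjusted p = 3.32e-04), from between 249 and 856 CPM to 9.53, 20.2, 26.8, 3.86 and 21.5 CPM. Trp73 fell by 5.54 (SE 0.97, adjusted p = 4.50e-04), from between 15.8 and 75.1 CPM to at most 2.00 CPM. Both also fell with BAP in Keap1-deleted tumours (-3.49 and -3.88) and passed the interaction (-4.07 and -4.37). With Keap1 deletion in BAP tumours the phosphatase gene Ppm1d, which turns the p53 response off, fell by 0.96 (SE 0.23, adjusted p = 0.00261). The deubiquitinase gene Usp7, which stabilises MDM2 and p53, fell by 0.74 (SE 0.22, adjusted p = 0.0121). In the other 2 comparisons 0 of the 15 passed. Those called 0.292% (Keap1 deletion in untreated tumours) and 0% (BAP in Keap1-wildtype tumours) of all genes.

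p21 is known to repress cell cycle genes through the DREAM complex. Of 14 such genes 5 fell and 0 rose with Keap1 deletion in BAP tumours, with a median of -0.15, where 20.0% of all genes fell and 20.3% rose. Mki67, the proliferation marker, fell by 1.38 (SE 0.27, adjusted p = 7.02e-04), from 152 to 247 CPM in Keap1-wildtype BAP libraries to between 48.0 and 94.4 CPM. Plk1 (-0.69), Mcm5 (-0.68), Top2a (-0.55) and Birc5 (-0.54), which act in mitosis and DNA replication, fell less. With BAP in Keap1-deleted tumours, where Cdkn1a also fell, the mitotic kinase gene Cdk1 rose by 0.76 (SE 0.20, adjusted p = 0.0292), alone among the 14. Of all genes 0.943% rose and 5.16% fell with BAP in Keap1-deleted tumours. In the remaining comparisons 0 of the 14 passed. Those called 0.292% (Keap1 deletion in untreated tumours), 0% (BAP in Keap1-wildtype tumours) and 6.94% (interaction) of all genes.

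Cdkn1a shares part of its span with AC167363.2 on the opposite strand, which reached at most 2.45 CPM, and Bax overlaps the predicted gene Gm45808, which was listed at 0 in every library. Whether counting used the strand is not given in the sources used here.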

How the data were processed

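RNA of 22 pulverised tumours was sequenced as Illumina paired-end reads, per the labels' protocols. The authors deposited, per the file headers, an expected count and an effective length (another value, in bases) per gene ID for each library. The files are named for RSEM, and for aligner, build and annotation this is not given in the sources used here. The deposited expected counts were whole at a tolerance of 1e-09, so rounding changed none. The deposited lengths were identical in all 22 files.

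IDs were matched to GENCODE M21 (GRCm38): 52073 had a symbol and held 99.39% of the counts. Coordinates are those of this annotation, whose build may not be the authors'. The members and gene lists were chosen with earlier results of these data known, so no list is independent evidence. Groups follow the labels' genotype and treatment, and replicates are numbered in order of deposition. No pair of libraries was a duplicate: over 12352 genes, chi-square divided by its degrees of freedom was at least 96.5 in all 231 pairs.

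All 22 libraries were fitted in 1 edgeR 4.0.16 quasi-likelihood model (R 4.3.3, TMM, filterByExpr with a minimum count of 10, robust, a term per group). SEs were derived from the F statistic. On simulated counts for the Keap1 comparison in BAP tumours (18658 genes, 200 changed 4-fold) 78.5% of the changed genes were called, with 4.3% false calls. Apart from the changed genes, the simulation gave each gene the same mean in all groups, with no difference in cell composition. The real comparison called 40.3% of all genes, so these rates need not hold there. Named genes are the 10 members, up to 6 passing genes per direction, list and comparison by smallest p (not all reported), and the 5 genes ranked most like Trp53 and Cdkn1a. The prior count of log2 CPM was 2. Alternatives were DESeq2 1.42.0 size factors or test, limma 3.58.1 voom, library totals, other low-count filters, only the groups compared, covariates, and leaving out each library. Leaving out 3 libraries together and the fibroblast covariate were chosen after seeing the data. Markers of T cells and endothelium were also tested. Promoter windows are from RefSeq.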

Additional observations from a re-analysis of the deposited data

Results flagged for a closer look

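In 40 tests, of the 10 genes in each of the 4 groups, the highest or lowest library stood apart from the rest of its group by Dixon's criterion 9 times. Chance flags about 1 group in 20 where values are normally distributed and tests independent. CPM on a linear scale and genes of the same libraries need not meet this, so the 9 flags cannot be weighed against that rate. Trp53 was high in Keap1-deleted BAP 3 (110 CPM, the next library 24.1) and low in Keap1-deleted untreated 5 (11.9 CPM, the next 21.6). Pmaip1 was high in the latter library (26.7 CPM, the next 12.3), which also had the highest basal keratinocyte score of its group, 9.34. Mdm2 (127 CPM, the next 61.0) and Eda2r (8.16 CPM, the next 3.14) were both high in Keap1-wildtype untreated 2. Bax was high in Keap1-wildtype BAP 5 (82.0 CPM, the next 54.7) and Bbc3 in Keap1-wildtype BAP 2 (8.54 CPM, the next 5.62). Ccng1 was high in Keap1-deleted BAP 4 (94.1 CPM, the next 76.6), the library with the lowest basal keratinocyte score, 1.36. Phlda3 was low in Keap1-deleted untreated 3 (116 CPM, the next 208), the library with the lowest score of its group, 6.47. The Keap1 effect on Cdkn1a differed between BAP and untreated tumours, with an interaction of -2.83 (SE 0.64, edgeR adjusted p = 0.0292). With the basal keratinocyte score in the fit it was -0.86 (adjusted p = 0.817), and with the fibroblast score -2.16 (adjusted p = 0.121). With the first score no gene of all tested passed the interaction, and 1 did with the second, so the loss does not single out Cdkn1a. The part of cell composition in the single libraries that stood apart was not tested.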

How the results depend on the processing

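No paired analysis was possible because the labels give the groups no shared replicate numbers. Of 1640 values of the 10 genes under the alternatives, 97 changed sign, and 0 of these passed the threshold before or after. The lowest count in a library was 20 for Eda2r, 84 for Pmaip1 and 107 for Bbc3, where counting error matters most. The 3-library exclusion and the fibroblast covariate were chosen after seeing the data. For each change below the cause was not tested.

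Keap1 deletion in untreated tumours called 56 genes and 0 of the 10. The DESeq2 test called 921 genes and 1 of the 10, limma-voom 3395 and 2, no low-count filter 36, only the groups compared 0, the R suffix of titles as a covariate 28, the basal keratinocyte score 135 and the fibroblast score 16. Without 3 libraries that stood apart (Keap1-wildtype untreated 6, and BAP 2 and BAP 3 of the Keap1-deleted tumours) it called 2523 and 3 of the 10. Leaving out 1 library gave 16 to 2731 genes (2731 without Keap1-wildtype untreated 6) and 0 to 2 of the 10. In BAP tumours, Keap1 deletion called 7746 genes and 7 of the 10. It called 0 and 0 with the basal keratinocyte score, 1 and 0 with the fibroblast score, and 6768 to 8198 genes and 6 to 7 of the 10 with 1 library left out. BAP in Keap1-wildtype tumours called 0 genes, but 892 with DESeq2 (26 higher, 866 lower) and 37 with the R suffix, and 0 with any library left out. BAP in Keap1-deleted tumours called 1172 genes and 1 of the 10. DESeq2 called 2102, limma-voom 3764 and 2 of the 10, no filter 398, only the groups compared 352 and 0, the basal keratinocyte score 2 and 0, leaving out the 3 libraries together 1816 and 2, and leaving out 1 library 181 to 1722 and 0 to 2. The interaction called 1333 genes and 1 of the 10. DESeq2 called 2964 and 3 of the 10, limma-voom 2 of the 10, no filter 111 and 0, the R suffix 3021 and 4, the basal keratinocyte score 0 and 0, the fibroblast score 1 and 0, leaving out the 3 libraries together 3 of the 10, and leaving out 1 library 1 to 2309 genes and 0 to 3 of the 10.

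Sign changes for Keap1 deletion in untreated tumours were as follows. Cdkn1a (-0.05) became 0.11 with library totals, 0.22 with the R suffix, 0.15 with the basal keratinocyte and 0.37 with the fibroblast score, and Phlda3 (-0.09) became 0.02, 0.15, 0.06 and 0.05. Bbc3 (0.09) became -0.11 with the fibroblast score. With 1 library left out they ranged from -0.29 to 0.32, from -0.22 to 0.06 and from -0.03 to 0.28. In BAP tumours Mdm2 (-0.11) became 0.33 with library totals, 0.70 with the basal keratinocyte and 0.67 with the fibroblast score. For BAP in Keap1-wildtype tumours limma-voom gave Mdm2 0.02, Bax 0.04 and Ccng1 0.04, no filter gave Ccng1 0.01, the basal keratinocyte score Ccng1 0.13, the fibroblast score Bax 0.03 and Ccng1 0.14, and leaving out the 3 libraries Bax 0.01 and Ccng1 0.10. With 1 library left out the ranges were -0.30 to 0.12 (Mdm2), -0.18 to 0.06 (Bax), -0.05 to 0.09 (Ccng1) and -0.71 to 0.13 (Eda2r). For BAP in Keap1-deleted tumours Bax (-0.02) became 0.01 with DESeq2 size factors, with the DESeq2 test and with the R suffix, 0.13 with library totals, 0.00 with a filter of 1 CPM in 5 libraries, 0.02 with only the groups compared, 0.05 with the basal keratinocyte score and 0.17 without the 3 libraries. That score also gave Bbc3 -0.14 and Ccng1 -0.11, the R suffix gave Eda2r -0.16, and leaving out the 3 libraries gave Trp53 -0.07 and Eda2r -0.58. With 1 library left out the ranges were -0.22 to 1.01 (Trp53), -0.16 to 0.07 (Bax), -0.01 to 0.26 (Bbc3) and -0.28 to 0.26 (Eda2r). In the interaction Bax (-0.00) became 0.05 with DESeq2 size factors and test, 0.35 with library totals, 0.03 with the CPM filter, 0.12 with the R suffix, 0.09 with the basal keratinocyte score and 0.16 without the 3 libraries. Ccng1 became -0.24 with that score, and Eda2r -0.09 with the R suffix and -0.20 without the 3 libraries. With 1 library left out the ranges were -0.15 to 0.17 (Bax) and -0.11 to 0.73 (Eda2r).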
